A study of Mus musculus with 2 samples.

Results

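Capillary endothelial cells that carry Gpihbp1 were described in single-cell RNA libraries of aneurysmal mouse aorta. The cells were chosen by a rule on unique molecular identifiers (UMIs, which count single captured RNA molecules): at least 2 of the endothelial genes Pecam1, Cdh5, Cldn5 and Egfl7 detected, at least 2 UMIs of Gpihbp1, at most 1 UMI of Cytl1, at most 1 of the lymphatic genes Prox1, Mmrn1 and Reln detected, and no UMI of the leukocyte gene Ptprc. Of 16521 cells that had at least 200 detected genes and at most 20% of UMIs from mitochondrial genes, 694 met the rule. The study held 2 libraries, titled D_A and IN_A, and the series design names DMSO and an inhibitor, so the initials were read as the DMSO library and the inhibitor library; no label names the inhibitor, its dose or its timing. Both libraries came from Apoe-/- mice aged 12 weeks in which angiotensin II (Ang II) had produced aneurysms of the abdominal aorta, so both carry the Apoe deletion and the Ang II treatment, and no untreated aorta was in the comparison. The tissue was cut into 5 segments and digested with enzymes before droplet capture with a 10x Genomics 3′ kit. The labels do not say how many animals a library holds. With 1 library per group no test between groups was possible: every interval below covers counting error only, and differences between animals, dissections and library preparations cannot be told apart from the treatment.

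GPIHBP1 is a small protein held on the surface of capillary endothelial cells. It binds lipoprotein lipase, an enzyme that is made by fat and muscle cells, carries it to the lumen and anchors it there, where the enzyme frees fatty acids from triglyceride-rich lipoproteins. CD36 and the fatty acid binding proteins FABP4 and FABP5 take part in moving those fatty acids across the endothelium. GPIHBP1 is made by the capillaries of muscle, heart and fat and is scarce in large vessels. Around the aorta, capillaries lie in the adventitia and in the perivascular fat, part of which is brown fat in the mouse. In the GRCm38 build Gpihbp1 lies on chr15:75596628-75599481, plus strand, and is annotated as protein coding.

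The rule found 487 cells in the DMSO library and 207 in the inhibitor library. Their summed depth was 3918884 and 1410380 UMIs. A median cell held 4622 UMIs in the DMSO library and 4049 in the inhibitor library, and the median mitochondrial share was 4.69% and 4.39%. The libraries shared 16 barcodes, of which 0 were among these cells. Gpihbp1 UMIs per cell ranged from 2 to 136 in the DMSO library and from 2 to 228 in the inhibitor library, with a median of 9 in both. All 4 of the endothelial genes were detected in 366 of the DMSO cells and in 121 of the inhibitor cells. The largest inhibitor cell stood apart in size. It held 165279 UMIs from 9909 genes, which was 11.7% of all UMIs of the inhibitor capillary cells, while the next held 49472 and the largest DMSO cell 51264.

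The label was checked on genes that the rule did not use, and levels are given as CPM, the count of a gene per 1000000 of the UMIs summed over a set of cells. Cd36, a fatty acid transporter, stood at 3524 CPM in the DMSO capillary cells and 3561 CPM in the inhibitor capillary cells, against 80.1 and 64.9 CPM in luminal cells with Cytl1. Kdr, the main receptor for the growth factor VEGF, stood at 691 and 773 CPM, and its highest level in another endothelial set was 626 CPM, in DMSO lymphatic cells. Flt1, the second VEGF receptor, stood at 1270 and 1508 CPM and was at most 330 CPM in luminal, venular and lymphatic cells. Aqp1, a water channel, stood at 2022 and 1892 CPM, and venular cells carried it at 1159 and 980 CPM. All 4 of these markers therefore stood higher in the Gpihbp1 cells than in each other endothelial set of the same library; the gap was wide for Cd36 and Flt1 and narrow for Kdr.

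**Figure D1:**
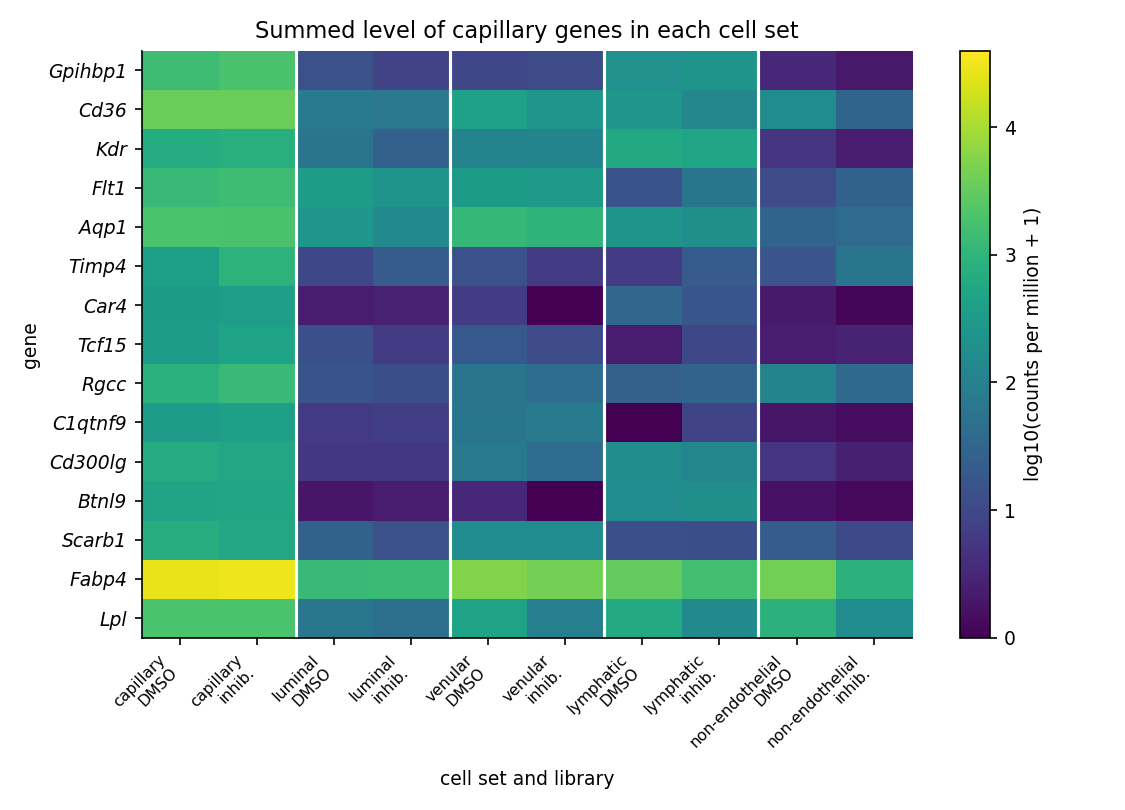
Summed level of 15 genes (rows) in 5 cell sets of the 2 libraries (columns), as log10 of CPM plus 1. The 2 leftmost columns, the Gpihbp1 capillary cells, are the brightest for every gene in both libraries, with Fabp4 at 28112 and 30965 CPM; Gpihbp1 itself was used to choose the cells.

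The genes that set these cells furthest apart from the remaining endothelial cells, ranked by the smaller of the ratios in the 2 libraries, fell into a few kinds. They are a description of cells chosen by a related gene, and no test was made. Lipid and glycerol handling was represented by Cd36, by the glycerol channel Aqp7 (189 against 5.77 CPM in the DMSO library and 150 against 3.03 CPM in the inhibitor library), by the lipoprotein receptor Scarb1 (747 against 70.2 and 550 against 23.4 CPM) and by the retinol binding protein Rbp7 (405 against 19.4 and 642 against 33.97 CPM). Car4, a carbonic anhydrase of capillary surfaces, stood at 322.5 CPM against 12.2 CPM in the other endothelial cells of the DMSO library and at 362 CPM against 6.49 CPM in those of the inhibitor library. Transcriptional and signalling genes were Tcf15, a partner of Meox2 in the endothelium of heart and muscle (332 against 13.3 and 463 against 8.44 CPM), and Rgcc, a regulator of the cell cycle (877 against 80.1 and 1276 against 30.7 CPM). Timp4, an inhibitor of metalloproteinases, led the ranking, at 401 CPM against 15.7 CPM in the DMSO library and 925 CPM against 27.7 CPM in the inhibitor library. The other genes of the first 20 were Rsad2, Ccdc85a, Gm12002, Mcf2l, Kcna5, Ablim3, C1qtnf9, Slc28a2, Depp1, Cd300lg, Btnl9 and Tcim. The ratio was over 10-fold in both libraries for every one of the 20.

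Cells just inside the Gpihbp1 limit differed from those just outside it by degree. Among DMSO cells that met the rest of the rule, the 82 with 1 Gpihbp1 UMI carried Cd36 at 1085 CPM and the 48 with 2 UMIs carried it at 1834 CPM, while the 344 with none carried it at 314 CPM. In the inhibitor library the same figures were 1103 CPM in 15 cells, 2363 CPM in 16 cells and 169 CPM in 125 cells. The fibroblast gene Dcn ran the other way in the DMSO library, at 5263, 4271 and 1851 CPM over cells with 0, 1 and 2 UMIs, and reached 940 CPM in the 216 cells with 10 or more. In the inhibitor library it was uneven, at 3991, 3470 and 125 CPM, then 2868 CPM with 3 UMIs and 366 CPM with 10 or more. The smooth muscle gene Acta2 stood at 1863 CPM in DMSO cells and 9295 CPM in inhibitor cells with 2 UMIs. In those with 10 or more it stood at 539 and 2063 CPM. Median depth was 2929 UMIs in the DMSO cells with 1 UMI and 3013 in those with 2, both below the median of 4622 UMIs of the DMSO capillary cells.

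Capillary cells were a smaller part of the inhibitor library. They made up 5.62% of kept cells in the DMSO library (95% exact binomial interval 5.15 to 6.13%, 487 of 8664 cells) and 2.63% in the inhibitor library (2.29 to 3.01%, 207 of 7857 cells), which was 2.13 times lower (interval 1.82 to 2.503). As a share of the endothelial cells they were 40.0% (37.2 to 42.8%, of 1218 cells) and 29.4% (26.1 to 33.0%, of 703 cells), 1.36 times lower (1.19 to 1.55). Luminal cells with Cytl1 differed in the opposite direction, at 14.6% (12.7 to 16.7%) of endothelial cells in the DMSO library and 39.0% (35.3 to 42.7%) in the inhibitor library. Venular cells with Selp or Ackr1 were 13.8% (11.9 to 15.9%) and 3.41% (2.20 to 5.04%), and lymphatic cells 10.4% (8.77 to 12.3%) and 11.7% (9.38 to 14.3%). With every cell thinned to 3000 UMIs before the rule was applied, capillary cells were 4.83% of DMSO cells and 1.93% of inhibitor cells, after 1936 and 1323 shallower cells were left out. In a dissociated tissue these shares also depend on how much adventitia and fat was taken and on which cells the digestion freed, and their part in the difference was not tested.

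**Figure D2:**
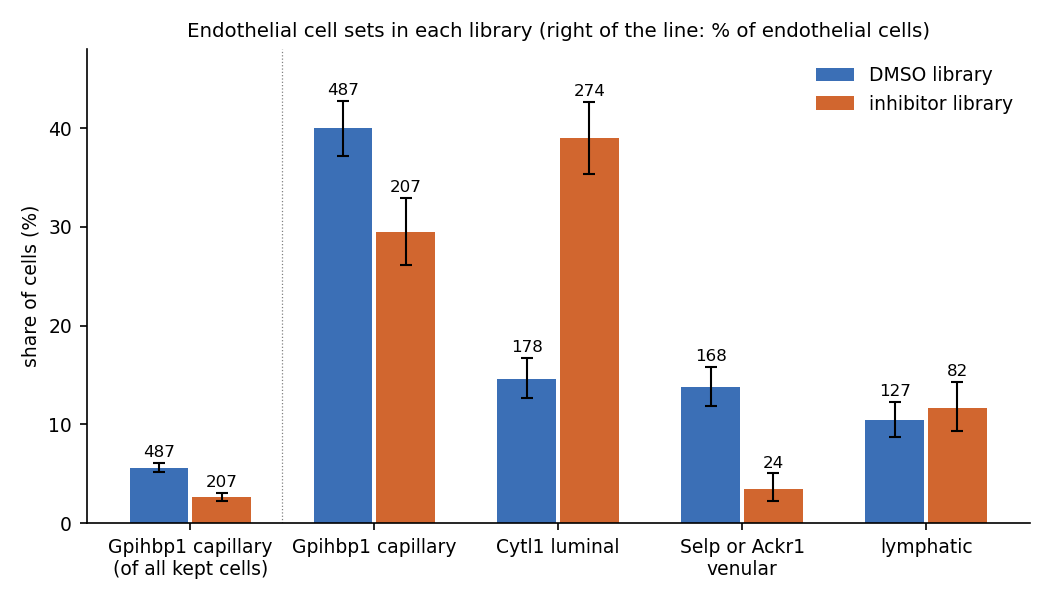
Share of cells in percent (vertical axis) for the Gpihbp1 capillary cells among all kept cells, and for 4 endothelial sets among the endothelial cells of each library; bars start at 0, error bars are 95% exact binomial intervals and numbers above the bars are cells. Capillary cells took 40.0% and 29.4% of endothelial cells, while luminal cells took 14.6% and 39.0%.

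Transcripts of other cell types within the capillary cells also differed between the libraries, and they bear on every gene comparison that follows. Summed over a list of 5 smooth muscle markers, the capillary cells held 2961 CPM in the DMSO library and 7915 CPM in the inhibitor library, with 5 of 5 markers higher in the latter. In the cells with no endothelial gene the same sum stood at 5573 and 26840 CPM. The 6 fibroblast markers summed to 6183 and 1994 CPM in the capillary cells, with 6 of 6 lower in the inhibitor library, and to 26169 and 18287 CPM in non-endothelial cells. The 3 brown fat markers, among them Ucp1, the uncoupling protein that makes heat in brown fat, summed to 334 and 35.5 CPM in the capillary cells and to 262 and 48.9 CPM in non-endothelial cells. The 6 adipocyte markers summed to 3175 and 4265 CPM, but 72.2% of the Adipoq UMIs and 75.7% of the Cfd UMIs of the inhibitor capillary cells came from the second largest cell, and the median cell held 256 CPM of this sum in the DMSO library and 0 in the inhibitor library. The 7 macrophage markers summed to 370 and 182 CPM. The venular markers Selp, Ackr1 and Sele were at 0 in the inhibitor capillary cells and the lymphatic marker Prox1 was at 0 there too. Whether these transcripts came from free RNA in the droplets, from attached cells or from the capillary cells was not tested, and fewer cells of a type and less RNA per cell cannot be told apart in such sums.

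Genes were compared between the libraries as the ratio of their CPM, over 7188 genes that reached 20 CPM in either library and 50 UMIs in all, and a ratio of 1.5 or more was taken as higher or lower. By this limit 374 genes were higher in the inhibitor library, which is 5.20% of the measured genes, and 746 were lower, which is 10.4%. Without the largest inhibitor cell the counts were 438 of 7231 genes higher, or 6.06%, and 810 lower, or 11.2%. The median gene had a log2 ratio of -0.03, where log2 ratios are taken after 5 CPM is added to each level. Against this background, 16 of 20 heat shock chaperones were higher and 0 lower, and 13 of 17 immediate early genes were lower and 0 higher. The measured genes of the junction list (0 of 9 either way) and of the basement membrane list (0 of 18 either way) stayed within the limit. The junction list leaves out the genes of the rule. Among these the tight junction gene Cldn5 was past the limit, at 940 and 365 CPM, 2.57-fold lower. Without the largest cell 1 basement membrane gene was higher and 2 were lower.

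**Figure D3:**
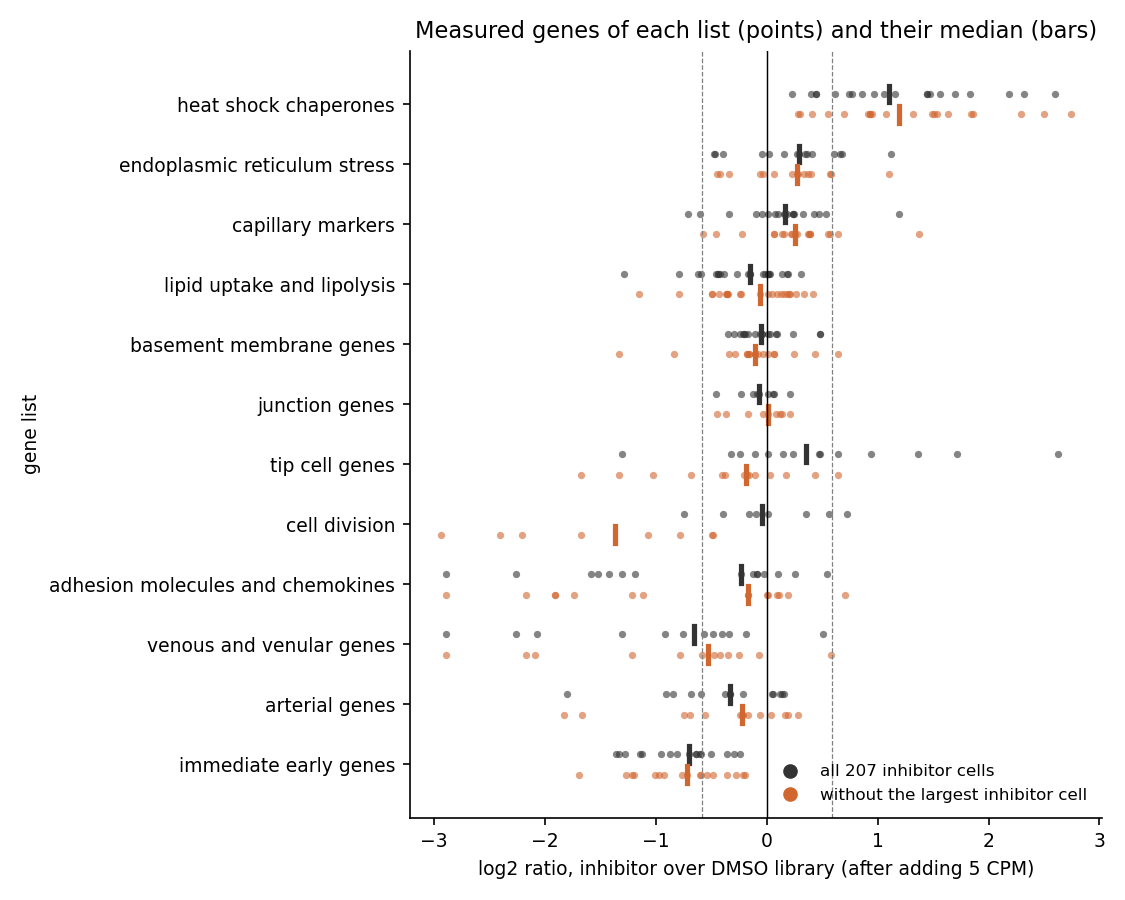
Log2 ratio of the inhibitor over the DMSO library (horizontal axis, after adding 5 CPM) for the measured genes of 12 lists (points) with the list median (vertical bars), over all capillary cells in black and without the largest inhibitor cell in orange; dashed lines mark 1.5-fold. Heat shock chaperones lie to the right with a median of 1.11 and immediate early genes to the left with a median of -0.70, while the tip cell and cell division lists shift to the left when the single largest cell is left out.

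Heat shock chaperones were the list with the highest median, 1.11 on the log2 scale against -0.03 for all measured genes, and all 20 had a log2 ratio above 0. These proteins bind unfolded proteins, and many of their genes are switched on by the heat shock factor HSF1. Hspb1, a small chaperone that also binds actin, stood at 981 CPM in the DMSO capillary cells and 5966 CPM in the inhibitor capillary cells, 6.08-fold higher (5.86 to 6.32). Cryab, another small chaperone, stood at 94.4 and 491 CPM, 5.20-fold higher (4.57 to 5.91). Hsph1, which exchanges the nucleotide of HSP70, stood at 94.9 and 449.5 CPM, 4.74-fold higher (4.16 to 5.397). Hspe1, the mitochondrial partner of the HSP60 protein encoded by Hspd1, stood at 184 and 669 CPM, 3.64-fold higher (3.30 to 4.02). Hsp90ab1, the constitutive cytosolic HSP90, stood at 2397 and 5003 CPM, 2.09-fold higher (2.02 to 2.15). Partners of HSP90 were higher too. Stip1, which hands clients from HSP70 to HSP90, stood at 74.5 and 230 CPM, and Ahsa1, which activates its ATPase, at 63.0 and 181 CPM. Fkbp4, a further HSP90 partner, stood at 99.5 and 253 CPM, and Ahsa2 at 54.9 and 152 CPM.

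**Figure D4:**
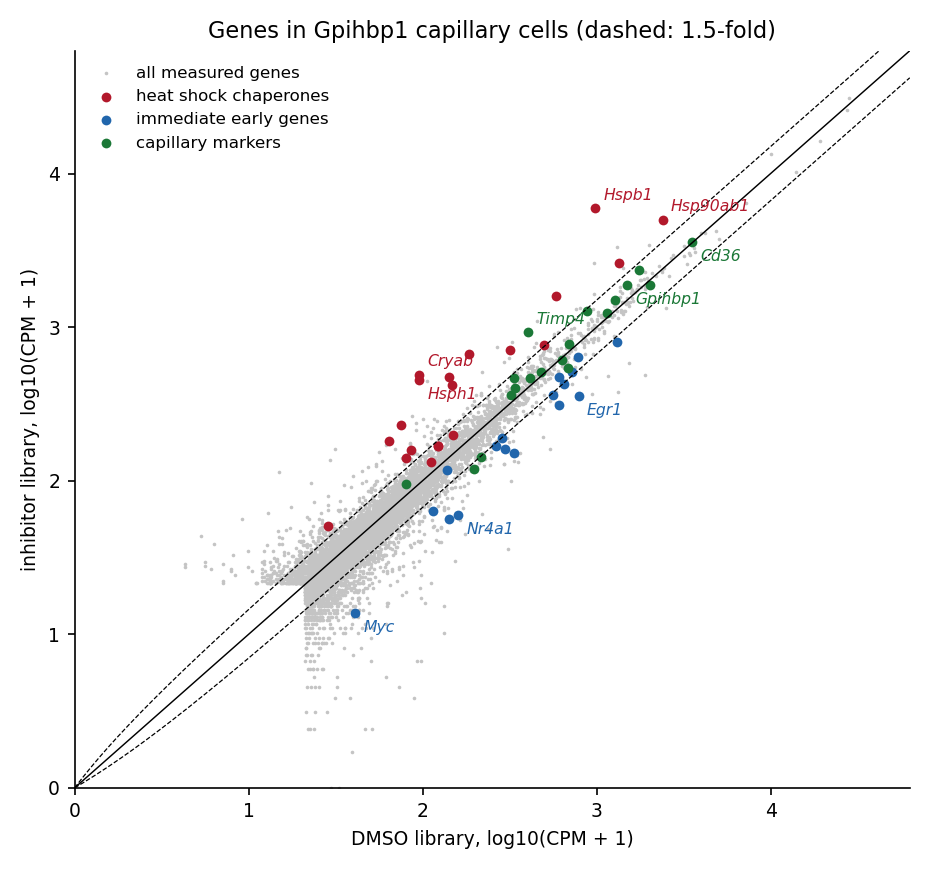
Level of 7188 genes in Gpihbp1 capillary cells, DMSO library on the horizontal and inhibitor library on the vertical axis, both as log10 of CPM plus 1; the solid line marks equal levels and dashed lines 1.5-fold. Heat shock chaperones (red) lie above the line, with Hspb1 at 981 and 5966 CPM, immediate early genes (blue) lie below it, and the capillary markers (green) lie between the dashed lines except Timp4, at 401 and 925 CPM, above them, and Meox2 and Ednrb below.

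The difference was seen across the cells. Summed over the 20 genes, the median DMSO cell held 7139 CPM, with quartiles of 5717 and 8856 CPM, and the median inhibitor cell held 15508 CPM, with quartiles of 12225 and 19463 CPM. The lower quartile of the inhibitor cells thus lay above the upper quartile of the DMSO cells, although the ranges overlapped, from 1258 to 21902 CPM and from 3380 to 87103 CPM. After thinning to 3000 UMIs, Hsph1 was detected in 21.3% of DMSO capillary cells (17.3 to 25.8%) and 56.6% of inhibitor capillary cells (47.8 to 65.1%), and Stip1 in 18.1% (14.4 to 22.4%) and 47.1% (38.4 to 55.8%). When cells were weighted equally, 11 of the 20 genes were higher and the median was 0.75. Hspa1a, an inducible HSP70, differed by measure: its summed level stood at 316 and 709 CPM, yet after thinning it was detected in 44.3% (39.2 to 49.5%) and 41.2% (32.8 to 49.9%) of the cells, and its log2 ratio was 0.21 when cells were weighted equally.

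The same genes were higher in the inhibitor library outside the capillary cells. Of the 20 chaperones, 13 were higher in luminal cells with a median of 0.85, and 19 were higher in non-endothelial cells with a median of 1.19. Non-endothelial cells carried Hspb1 at 589 and 7534 CPM and Cryab at 241 and 1482 CPM, above the capillary cells in the inhibitor library. In contrast, Hsp90ab1 (5003 against 3569 CPM), Stip1 (230 against 192 CPM) and Ahsa1 (181 against 142 CPM) were higher in the inhibitor capillary cells than in the non-endothelial cells of that library. The smooth muscle marker sum in the capillary cells, 2961 and 7915 CPM, moved with these genes, and its part in them was not tested; among cells with at most 1% of UMIs from markers of other cell types, the list median was 0.70.

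**Figure D5:**
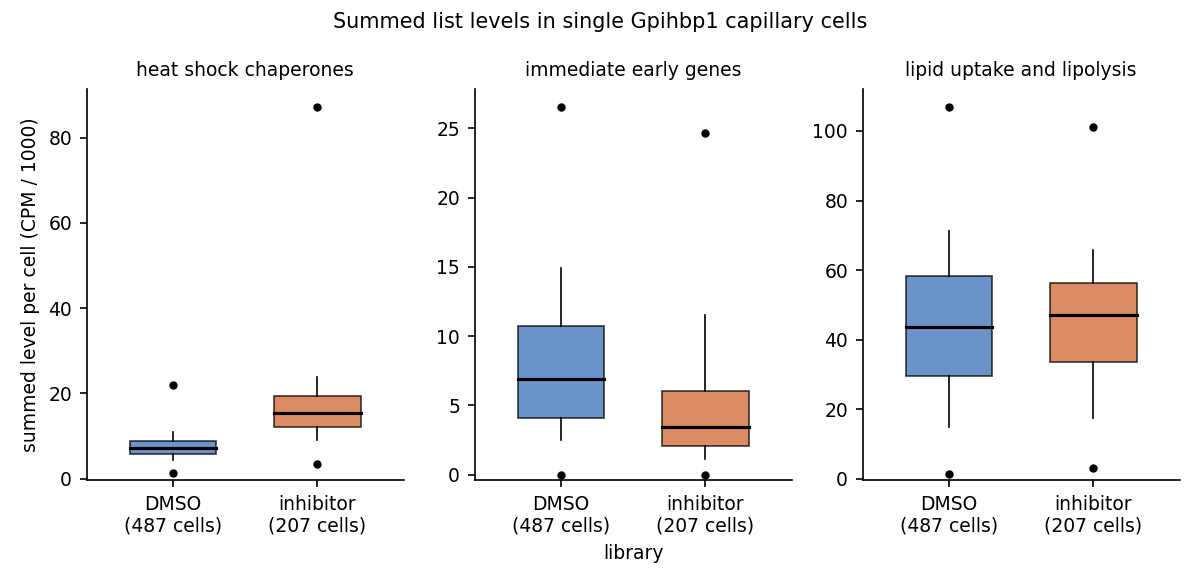
Summed level of 3 gene lists in single Gpihbp1 capillary cells, in CPM divided by 1000 (vertical axis), for the 487 DMSO and 207 inhibitor cells; boxes span the quartiles with the median as a line, whiskers run from the 10th to the 90th percentile and points mark the lowest and highest cell. Heat shock chaperones have medians of 7139 and 15508 CPM, immediate early genes 6914 and 3458 CPM, and lipid genes 43689 and 47130 CPM.

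Because the chaperones were higher together, their promoters were read for the element that HSF1 binds, which is built from inverted copies of the triplet GAA. The motif of a facing pair, GAANNTTC, reads the same on both strands. RefSeq promoter windows of the GRCm38.p6 build, 250 bases before to 50 bases after a start site, were on hand for 16 of the 20 chaperone genes. The motif occurred in 11 of these 16, and in 9 of the 12 that were higher. It occurred in 9.04% of the 27025 genes with a window, in 6.94% of 5623 measured genes, in 12.5% of 273 genes that were higher and in 5.76% of 538 that were lower. The 273 higher genes include the 12 higher chaperones. Of the 34 higher genes with the motif, 9 are therefore chaperones already counted above. A run of 3 units, GAANNTTCNNGAA or TTCNNGAANNTTC, was found in Hsph1, Hspe1, Hspd1 and Chordc1 of the list, against 0.662% of all genes with a window. These stretches are shown because they carry the run of 3 units among the chaperone genes, with Hspb1 added for its ratio; capitals mark bases within a pair or a run of 3 units, and each is written 5′ to 3′ on the strand of the gene.
Hsph1 (chr5:149636280-149636308, minus strand, in an exon after the start): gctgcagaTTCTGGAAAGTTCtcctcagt
Hspe1 (chr1:55088053-55088082, plus strand, 89 bases before the start): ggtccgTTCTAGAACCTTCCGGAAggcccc
Chordc1 (chr9:18292260-18292288, plus strand, across the start): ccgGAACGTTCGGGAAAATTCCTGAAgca
Hspb1 (chr5:135887772-135887859, plus strand, upstream of the gene): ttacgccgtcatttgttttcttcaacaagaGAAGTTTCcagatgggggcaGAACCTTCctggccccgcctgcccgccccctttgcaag
Hspd1 lies head to head with Hspe1 and shares its run, on the other strand and inside an annotated Hspd1 exon. Hspd1 stood at 147 CPM in the DMSO capillary cells and 416 CPM in the inhibitor capillary cells, and Chordc1, a partner of HSP90, at 84.7 and 157 CPM; both are named here for their promoters. A match describes these letters only.

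Immediate early genes were lower as a group. They encode transcription factors and feedback regulators that are switched on within minutes by growth factors, stretch and many other stimuli. All 17 had a log2 ratio below 0, 13 passed the limit, and the median was -0.70. Nr4a1, an orphan nuclear receptor, stood at 158 CPM in the DMSO library and 58.9 CPM in the inhibitor library, 2.69-fold lower (2.13 to 3.42). Myc stood at 39.8 and 12.8 CPM, 3.12-fold lower (1.91 to 5.401), and Fosl2, a partner of Jun proteins, at 141 and 55.3 CPM, 2.54-fold lower (2.003 to 3.27). Egr1, a zinc finger factor, stood at 787 and 354.5 CPM, 2.22-fold lower (2.02 to 2.44), and Jun at 1302 and 799 CPM, 1.63-fold lower (1.53 to 1.74). Jund, at 785 and 638 CPM, stayed within the limit. After thinning, Egr1 was detected in 71.2% (66.3 to 75.7%) of DMSO cells and 41.9% (33.5 to 50.7%) of inhibitor cells, and in 76.5% and 50.0% of the non-endothelial cells. Summed over the list, the median cell held 6914 CPM (quartiles 4064 and 10770) in the DMSO library and 3458 CPM (2060 and 6030) in the inhibitor library, so the distributions overlapped more than those of the chaperones.

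As with the chaperones, this was shared with other cells. In non-endothelial cells 13 of the 17 genes were lower with a median of -1.18, and in luminal cells 5 were lower with a median of -0.44. Non-endothelial cells carried Egr1 at 803 and 335 CPM and Jun at 1345 and 723 CPM, close to the capillary cells, while Fos was higher in them in the DMSO library (909 against 604 CPM) and Btg2 lower (388 against 722 CPM). The part of free RNA in them was not tested. Apold1, an endothelial gene of the early response, was nearly restricted to endothelial cells. It stood at 322 and 98.6 CPM in the capillary cells, 3.27-fold lower (2.74 to 3.92), against 2.58 and 0.743 CPM in non-endothelial cells. After thinning it was detected in 53.6% (48.4 to 58.7%) and 25% (17.98 to 33.1%) of the capillary cells, against 0.802% and 0.284% of non-endothelial cells. It was lower in the inhibitor library in luminal cells (49.8 and 17.8 CPM), venular cells (97.5 and 42.4 CPM) and lymphatic cells (489 and 300 CPM) as well. Klf4 and Klf2, transcription factors that respond to blood flow, stood at 812 and 535 CPM and at 1254 and 881 CPM, of which Klf4 passed the limit, at 1.52-fold lower (1.40 to 1.64), and Klf2 did not, at 1.42-fold (1.34 to 1.52). Without the largest inhibitor cell Klf4 stood at 597 CPM in the inhibitor library and was within the limit too, and 11 of the 17 immediate early genes were lower.

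Fewer of the genes that define the cells passed the limit than of the chaperones or immediate early genes. Gpihbp1 itself, on which the cells were chosen, stood at 1489 and 1871 CPM. Of 19 capillary markers 1 was higher and 2 were lower, with a median log2 ratio of 0.16. These counts are near the shares over all measured genes, 5.20% higher and 10.4% lower. The higher one was Timp4, at 401 CPM in the DMSO library and 925 CPM in the inhibitor library, 2.30-fold higher (2.14 to 2.48); after thinning it was detected in 57.1% (51.9 to 62.1%) and 83.1% (75.7 to 89.0%) of the cells, and in 3.56% and 10.96% of non-endothelial cells. Outside the marker list, Rbp7 (405 and 642 CPM) and Gm12002 (90.8 and 235 CPM, 2.59-fold, 2.22 to 3.02), both among the genes that set these cells apart, were higher as well. The lower ones were Meox2, a homeobox factor that promotes fatty acid uptake with Tcf15 (197.5 and 119 CPM, 1.66-fold lower, 1.40 to 1.97), and Ednrb, an endothelin receptor (217 and 141 CPM, 1.53-fold lower, 1.31 to 1.80). Ednrb was within the limit without the largest inhibitor cell, at 157 CPM, and with cells weighted equally, at 269.8 and 205 CPM; without that cell Tcf15 passed as higher. Ly6c1, a surface protein of capillary and arterial endothelium, stood at 1759 and 2371 CPM, within the limit. With cells weighted equally it passed as higher, at 1995 and 3161 CPM.

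Most genes of lipid uptake and breakdown stayed within the limit. Of 23 measured, 0 passed it as higher and 4 as lower, beside 5.20% and 10.4% of all measured genes. The list median was -0.15. Cd36 stood at 3524 and 3561 CPM, a ratio of 1.01 (0.978 to 1.04), and Fabp4, which carries fatty acids in the cytosol, at 28112 and 30965 CPM, a ratio of 1.10 (1.09 to 1.11). Lpl, the lipase that Gpihbp1 carries, stood at 1969 and 2008 CPM, against 891 and 171 CPM in the non-endothelial cells; it was looked up for its tie to Gpihbp1. The lower genes were Cpt1a, which lets fatty acids into mitochondria (47.0 and 16.3 CPM, 2.88-fold lower, 1.86 to 4.66), Dgat1, which makes triglyceride (34.2 and 17.7 CPM, 1.93-fold, 1.25 to 3.09), the acyl-CoA synthetase Acsl1 (124 and 78.7 CPM, 1.57-fold, 1.28 to 1.95) and the receptor Lrp1 (129 and 84.4 CPM, 1.53-fold, 1.25 to 1.89). All 4 of these genes stood higher in the non-endothelial cells of the DMSO library than in its capillary cells. Without the largest cell Acsl1 and Lrp1 were within the limit. With cells weighted equally all 4 passed as lower and were joined by Slc27a1, Plin2 and Angptl4. That made 7 of the 23 genes lower in that setting, while 0 passed as higher. Across single cells the lipid list summed to a median of 43689 CPM and 47130 CPM with broad overlap.

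Caveolae, the membrane pits that fill capillary endothelium, gave values near equality for their coat genes: Cav1 stood at 1275 and 1377 CPM and Cavin2 at 1062 and 1063 CPM. Plvap, which builds the diaphragms of caveolae and of fenestrae, stood at 336 and 133 CPM, 2.52-fold lower (2.16 to 2.95), and after thinning was detected in 28.8% (24.3 to 33.7%) of DMSO cells and 13.2% (8.04 to 20.1%) of inhibitor cells, against 4.48% and 4.73% of non-endothelial cells. Ehd4 was also lower, at 172 and 108 CPM, and Cavin3 higher, at 333 and 511 CPM, a call lost without the largest cell. Cldn5, a tight junction protein and a gene of the rule, stood at 940 and 365 CPM, 2.57-fold lower (2.35 to 2.83), while Cdh5, also of the rule, stood at 1231 and 1171 CPM. In luminal cells Cldn5 also passed as lower, at 793 and 429 CPM. It stood at 1402 and 1156 CPM in lymphatic cells and at 94.3 and 111 CPM in venular cells. Pooled over all other endothelial cells it stood at 509 and 508 CPM. That pool mixes sets whose shares differed between the libraries, luminal cells being 14.6% and 39.0% of endothelial cells, so it does not show a level within a set. The junction genes Esam (695 and 723 CPM) and Ctnnb1 (489 and 512 CPM) and the basement membrane genes Col4a1 (1385 and 1290 CPM) and Sparc (4852 and 4236 CPM) stayed within the limit.

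Genes of veins and venules, where leukocytes leave the blood, were lower in part: 6 of 12 measured genes were lower, 0 higher, and the median was -0.66. Over all measured genes 10.4% were lower and 5.20% higher. Selp, the adhesion molecule P-selectin, had 126 UMIs in 46 DMSO capillary cells and 0 in the 207 inhibitor cells. That is 32.2 CPM against a floor of 2.13 CPM (3 UMIs over the summed cells), at least 15.1-fold lower by that floor. The exact counting interval used for the other genes reaches down to 12.1-fold lower. By the same floor of 3, 0 of 207 cells allows a share of cells with a UMI of up to 1.45%. The DMSO share was 9.45% (6.998 to 12.4%), and 3.75% and 1.39% of non-endothelial cells held a UMI. Vwf, the von Willebrand factor of haemostasis, stood at 60.7 and 10.6 CPM, 5.71-fold lower (3.39 to 10.4), Vcam1, which binds leukocyte integrins, at 97.2 and 16.3 CPM, 5.96-fold lower (3.91 to 9.52), and Icam1 at 126 and 48.2 CPM, 2.62-fold lower (2.03 to 3.42). With cells weighted equally the differences were smaller for Vcam1, at 51.6 and 26.7 CPM, and for Vwf, at 42.8 and 13.9 CPM. Bgn, a matrix proteoglycan, stood at 718 and 425 CPM, beside 2283 and 2375 CPM in non-endothelial cells. Of the 487 DMSO cells 435 had no UMI of Selp or Ackr1, and over these and the 207 inhibitor cells the median of the list was -0.39. The rule does not bar venular genes, so cells with UMIs of both Gpihbp1 and Selp were kept. The fibroblast marker sum, 6183 and 1994 CPM, moved with Bgn and Vcam1, and its part was not tested.

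The lists that follow stand beside 5.20% of all measured genes higher and 10.4% lower. Adhesion molecules and chemokines were lower for 7 of 15 genes, with a median of -0.23. Of these 7, Selp, Vcam1 and Icam1 were also counted in the list of veins and venules. In non-endothelial cells 13 of the 15 were lower, with a median of -1.41, and in luminal cells 6 were, with a median of -0.36. Cxcl1, which draws neutrophils, stood at 70.4 and 21.3 CPM, 3.31-fold lower (2.27 to 5.001), and Ccl2, which draws monocytes, at 22.7 and 4.25 CPM, 5.34-fold lower (2.36 to 14.9), beside 189 and 24.7 CPM and 183 and 67.6 CPM in non-endothelial cells. Cxcl12 (1100 and 939 CPM) and the NF-kB inhibitor Nfkbia (601 and 644 CPM) stayed within the limit. Lcn2 was higher by the limit, at 23.7 and 36.9 CPM, but 84.6% of its inhibitor UMIs lay in 1 cell. Arterial genes were lower for 5 of 14, with a median of -0.33; without the largest cell 4 were lower, and with cells weighted equally 3 were lower and the median was 0.05. Gja4, a gap junction protein, stood at 61.8 and 14.2 CPM, 4.36-fold lower (2.76 to 7.26), Mgp, an inhibitor of calcification, at 2502 and 1332 CPM, Clu at 581 and 322 CPM and Fbln5, an elastic fibre protein, at 201 and 123 CPM. With cells weighted equally Gja4 stood at 30.9 and 17.1 CPM, and without the largest cell Fbln5 was within the limit. Mgp, Clu and Fbln5 stood higher than this in luminal or non-endothelial cells. Among genes of tone and clotting 8 of 19 were lower and 2 higher, of which 1 was Apln, with 92.5% of its inhibitor UMIs in the largest cell. Without that cell 6 were lower and 1 higher, and with cells weighted equally 4 were lower and 1 higher. The anticoagulant genes Tfpi (44.4 and 24.1 CPM) and Procr (37.8 and 20.6 CPM) and the plasminogen activator Plat (58.7 and 31.9 CPM) were lower, and Ptgis, the prostacyclin synthase, was higher (101 and 195 CPM) beside 257.5 and 821 CPM in non-endothelial cells. Slco2a1, a prostaglandin transporter, was at 49.5 and 5.67 CPM, 8.73-fold lower (4.34 to 20.5), and at 31.8 and 9.06 CPM with cells weighted equally. Itgb4, an integrin chain, stood at 24.2 and 3.55 CPM, and Notch3, a receptor of mural cells, at 61.2 and 14.9 CPM, or 26.2 and 12.0 CPM with cells weighted equally. Also among the 12 lowest ratios were Fbxl18, at 46.2 and 9.93 CPM, and CT010467.1, at 541 and 161 CPM, 3.36-fold lower (2.93 to 3.87), which was lower in non-endothelial cells too, at 315 and 72.4 CPM.

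Many calls among genes of sprouting and division turned on a single cell. Tip cell genes, which lead new capillary sprouts, had 6 of 14 higher and 1 lower, with a median of 0.35. Apln, the apelin ligand of sprouting cells, stood at 14.03 CPM in the DMSO library and 113 CPM in the inhibitor library, 8.03-fold higher. However, the largest inhibitor cell held 92.5% of the inhibitor Apln UMIs, 92.5% of those of Esm1, 73.0% of those of Angpt2 and 70.8% of those of Pgf. It also held 99.3% of the Ube2c UMIs, 93.8% of those of Cdk1 and all 25 of Mki67 and 41 of Birc5. That cell carried 228 UMIs of Gpihbp1, 140 of Cd36, 200 of Cdh5, 2 of Dcn and 0 of Adipoq, and its doublet score of 0.180 was under the threshold of 0.214. With cells weighted equally 2 tip cell genes were higher, Angpt2 (21.3 and 35.7 CPM) and Unc5b, and 3 were lower. Without the largest cell 1 tip cell gene was higher and 4 were lower with a median of -0.19, and Apln, Esm1, Angpt2 and Pgf had log2 ratios of -0.38, -1.02, -0.16 and -0.40. Division genes turned in the same way: 2 of 8 measured division genes were higher and 1 lower over all cells, with a median of -0.04, and 0 were higher and 6 lower without the largest cell, with a median of -1.37. A UMI of Mki67, a marker of cycling cells, was found in 21 of 487 DMSO cells (4.31%, 2.69 to 6.52%) and 1 of 207 inhibitor cells (0.483%, 0.0122 to 2.66%), and a UMI of Apln in 25 DMSO cells (5.13%) and 8 inhibitor cells (3.86%).

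The second largest inhibitor cell held all 224 Saa2 UMIs, 91.1% of the Fgl1 UMIs and 91.7% of the Pon1 UMIs of the inhibitor capillary cells, so that these 3 genes passed as higher, at 30.4 and 159 CPM, 7.14 and 31.9 CPM, and 5.10 and 25.5 CPM. It held 3680 UMIs of the adipocyte gene Cfd and 140 of Adipoq beside 12 of Gpihbp1 and 50 of Cd36. Without the cells over 40000 UMIs of both libraries the log2 ratios were -2.87 for Saa2, -0.57 for Fgl1, -0.38 for Pon1 and -1.33 for Lcn2. Transcripts of brown fat were lower among the inhibitor cells: Ucp1 stood at 131 and 9.22 CPM, 14.2-fold lower (8.23 to 26.9), with a UMI in 33 DMSO cells (6.78%, 4.71 to 9.38%) and 1 inhibitor cell (0.483%), and in 6.53% and 0.492% of non-endothelial cells. Cidea, a lipid droplet gene, stood at 91.4 and 5.67 CPM and Cox7a1, a muscle and brown fat form of a respiratory subunit, at 27.1 and 2.13 CPM. With cells weighted equally they stood at 34.2 and 3.96 CPM and at 10.6 and 4.57 CPM.

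The remaining pathways stand beside 5.20% of all measured genes higher and 10.4% lower. Of VEGF and angiopoietin genes 2 of 13 were higher and 1 lower. Both higher ones, Angpt2 and Pgf, were within the limit without the largest cell. With cells weighted equally Angpt2 still passed as higher, at 21.3 and 35.7 CPM, and Pgf did not. Vegfa stood at 41.3 and 15.6 CPM and the phosphatase Ptprb at 802 and 921 CPM. Of Notch genes 1 of 12 was lower, Dll1 at 40.8 and 21.3 CPM, while Notch1 stood at 208 and 238 CPM and its target Hes1 at 396 and 345 CPM. Of 24 genes of interferon response and antigen presentation 1 was higher and 4 lower. Bst2, an antiviral membrane protein, was higher at 448 and 787 CPM, 1.75-fold (1.63 to 1.89), while Ifitm3 (1942 and 1952 CPM) and B2m (1895 and 1778 CPM) were level. The lower ones were the class II genes H2-Eb1, H2-Ab1 and H2-Aa and their chaperone Cd74, at 210.5 and 98.6 CPM. Leukocytes express these, and non-endothelial cells held Cd74 at 2848 and 1327 CPM. The top cell of each library held 25.6% and 29.5% of the Cd74 UMIs, and 31.5% and 55.4% of those of H2-Aa. All 4 passed as lower without the largest cell and with cells weighted equally too. In luminal cells all 4 passed as higher instead. Over all endothelial cells outside the capillary set, only H2-Ab1 of the 4 passed, as lower. Of endoplasmic reticulum stress genes 4 of 15 were higher, led by Creld2 (25.01 and 60.3 CPM), with Sdf2l1, Manf and Hsp90b1, and without the largest cell 2 were. With cells weighted equally 5 were higher and 1, Ddit3, was lower, and in luminal cells 5 were higher and 0 lower. Hspa5, the main chaperone of that compartment, stood at 593 and 718 CPM. In TGF-beta and BMP signalling Tgfb2 was higher (39.0 and 106 CPM, 2.71-fold, 2.15 to 3.41) beside 81.6 and 325 CPM in non-endothelial cells, Tgfbr3 was lower (211 and 130 CPM, within the limit without the largest cell) and the targets Id1 (648 and 827 CPM) and Id3 (1017 and 1200 CPM) stayed within the limit. Of glucocorticoid-induced genes and metallothioneins 1 of 12 was higher, Zbtb16 at 83.2 and 173 CPM, while 49.8% of the Mt1 UMIs of the inhibitor cells lay in the second largest cell. Of glycolysis and hypoxia genes Higd1a was higher (81.2 and 150 CPM), Hk2 lower (31.9 and 17.02 CPM), and Gapdh (566 and 530 CPM) and Aldoa (353 and 327 CPM) were level. P4ha1, which hydroxylates collagen, was among the highest ratios outside the lists, at 85.7 and 262 CPM, 3.05-fold (2.62 to 3.55), beside 100.5 and 222 CPM in non-endothelial cells, where it was also higher.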

How the data were processed

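Single-cell RNA was measured in 2 libraries of 9125 and 8149 barcodes. The authors deposited UMI counts for each gene and barcode. Per the file headers the software was Cell Ranger 6.1.1, and the submitters' processing notes name Cell Ranger, Seurat and the GRCm38 build. No source here says whether intronic reads were counted. The deposited counts are unnormalized, hold at least 500 UMIs per barcode, and sum to 101139161 and 79648307 UMIs. The members and gene lists were chosen with earlier results of these data known. Cells with under 200 genes or over 20% mitochondrial UMIs were removed, and no doublets were removed: Scrublet (scanpy 1.11.5) called 0% of DMSO cells at its automatic threshold, so removal at 0.214 in both libraries was an alternative only.

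Counts were summed over the cells of a set, scaled to CPM, and compared as a ratio with an exact 95% interval (Clopper-Pearson for shares); UMIs of 1 cell are not independent, so intervals cover counting error only. A count of 0 was given a floor of 3 UMIs. Lower ratios are given as the DMSO over the inhibitor level. Named genes were the capillary markers, the 12 highest and 12 lowest ratios, up to 4 per direction and the 2 most abundant of each list, and the 20 genes that set the cells apart. The 12 highest and 12 lowest were taken among genes not more abundant in non-endothelial cells (which hold no UMI of the 4 endothelial genes). This was asked only in the library where the gene was higher, and the other library was not checked. Hspd1, Chordc1, Hspa1a, Lpl, Dcn, Adipoq and Cfd were added after their values were seen. Levels are not compared between genes. The comparison was run on simulated counts drawn independently from the summed profile of the capillary cells. These held no spread between cells, no free RNA and no dominant cell, so they cannot show how the calls behave under those. Python 3.11.15, numpy 2.4.6, scipy 1.17.1 and pandas 2.3.3 were used. Overlapping genes were not separated further.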

Additional observations from a re-analysis of the deposited data

How the results depend on the processing

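No paired analysis was possible because each group holds 1 library, and for the same reason no replicate could be left out. Over 22 alternatives, 58 of 70 values for the 2 shares and the 2 gene counts stayed close to those reported. Close meant within 1.5-fold for a count and within the margin of the counting interval for a share. Adding 1 or 20 CPM could not change the counts, because calls use the ratio before any CPM is added. Leaving out shared barcodes could not change them either, because 0 were among the capillary cells. These agreements therefore carry no weight. Weighting cells equally gave 589 higher genes, a minimum of 50 CPM gave 174 higher and 258 lower, no minimum gave 2255 and 3048, and a limit of 2-fold gave 123 and 292. The log2 ratio of the capillary share of kept cells, -1.09, was -1.32 after thinning to 3000 UMIs. In 2 further settings some cells were no longer counted as capillary cells but stayed in the totals. The log2 ratio was -0.85 when these were cells holding Selp, Ackr1, Esm1, Apln, Mki67 or Top2a. It was -0.79 when they were cells holding Ucp1, Cidea, Cox8b or Adipoq. For the share of endothelial cells, -0.44, these settings gave -0.20 and -0.13. Leaving out the largest cell, cells over 40000 UMIs, shared barcodes and the last 2 sets of cells were alternatives chosen after seeing the data. Signs were compared for 114 of the named genes, namely the capillary markers, the highest and lowest ratios and the genes chosen from the lists. Genes named only because they set the cells apart, or added after their values were seen, were not checked. Of the 114 genes, 13 that were past the limit changed sign in at least 1 of 18 settings. Genes within the limit were not counted; of these, Mt1 turned from 0.46 to -0.59 with cells weighted equally and Hmgb2 from 0.36 to -0.78 without the largest cell. Without the largest cell the log2 ratios were Angpt2 -0.16, Apln -0.38, Birc5 -2.21, Cdk1 -1.67, Esm1 -1.02, Pgf -0.40 and Ube2c -2.20, each positive over all cells. Without cells over 40000 UMIs they were Angpt2 -0.078, Apln -0.55, Birc5 -2.17, Cdk1 -1.66, Esm1 -1.03, Fgl1 -0.57, Lcn2 -1.33, Pgf -0.38, Pon1 -0.38, Saa2 -2.87 and Ube2c -2.19. With cells weighted equally they were Apln -0.030, Birc5 -1.41, Cdk1 -1.03, Esm1 -0.027, Lcn2 -1.62, Pgf -0.40, Saa2 -0.70 and Ube2c -1.22. Without cells over 1% other markers they were Fgl1 -0.39, Lcn2 -1.44, Pon1 -0.11 and Saa2 -0.55. Without the venular, sprouting and dividing cells they were Birc5 -0.41, Cdk1 -0.37, Fgl1 -0.53, Lcn2 -0.77, Pgf -0.23, Pon1 -0.49, Saa2 -2.29 and Ube2c -0.26, and without the fat marker cells Fgl1 -0.49, Lcn2 -1.86 and Saa2 -0.57. Lcn2 was -0.33 with 1 Gpihbp1 UMI allowed, Ptgis -0.35 with doublets removed, and Mki67 0.23 without cells holding Selp or Ackr1. The causes were not tested, apart from the cells that each setting leaves out. The 207 inhibitor cells limit the shares: 0 of 207 cells allows a share of up to 1.45% by a floor of 3 counts.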

Other observations

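In the promoters of immediate early genes, the cyclic AMP response element TGACGTCA was found in 2 of 14 genes with a window, Btg2 and Dusp1, against 2.03% of all genes with a window and 3.68% of the measured ones; of the 10 lower early genes with a window 1 held it. Btg2, which slows cell division, stood at 722 CPM in the DMSO capillary cells and 510 CPM in the inhibitor capillary cells, within the 1.5-fold limit, and Dusp1, a phosphatase of stress kinases, at 648 and 427 CPM, just past it but within it without the largest inhibitor cell and with cells weighted equally. Outside the chaperones, the run of 3 heat shock units was found in Bst2, Agk and Uchl1 among the higher genes with a window and in Nploc4 among the lower ones. Lymphatic endothelial cells also carried Gpihbp1, at 215 and 237 CPM, and Kdr at 626 and 502 CPM, although both lymphatic sets lacked the capillary levels of Timp4, at 5.35 and 19.8 CPM. Haemoglobin transcripts, counted over 4 erythroid markers, summed to 151 CPM in the DMSO capillary cells and 9.93 CPM in the inhibitor capillary cells, against 196 and 83.0 CPM in non-endothelial cells.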
